A study of Mus musculus with 4 samples.

Results

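The globin and heme synthesis genes described here were 9 of the 32285 genes counted by single-cell RNA-Seq (scRNA-Seq) in 4 spleen libraries, and were taken by symbol without regard to their values. They comprised the α-globin genes Hba-a1 and Hba-a2, the β-globin genes Hbb-bs and Hbb-bt, the heme synthesis enzymes Alas2, Alad, Urod and Fech, and the mitochondrial iron carrier Slc25a37. Each library came from 1 mouse. BALB/c recipients were lethally irradiated, given allogeneic bone marrow and 10000 WEHI-3B cells, a BALB/c myelomonocytic leukemia line, and infused with 200000 donor T cells (Tc) on day 2. Spleens were taken on day 23. In 2 libraries the donor cells were Havcr2fl/fl, in which the gene encoding TIM-3 is flanked by loxP sites. In the other 2 they were Havcr2fl/fl;E8icre/+, which also carry a Cre driven by the E8i element of the Cd8a locus, active in mature CD8+ Tc and not in the erythroid lineage. All 4 libraries thus shared the floxed allele, the irradiation, the leukemia and the allogeneic graft, and the design compared the genotypes of the donor Tc. For brevity, E8icre/+ below stands for Havcr2fl/fl;E8icre/+. The labels describe the cells as Tc from a Tc enrichment, and nothing there says whether any erythroid cell was meant to be captured.

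The matrices held 15784 barcodes and 142576164 unique molecular identifiers (UMIs, 1 per captured mRNA molecule), with 17693991 to 55045903 UMIs per library. Barcodes under 500 genes or 1000 UMIs, or with over 10% of UMIs from mitochondrial genes, were set aside, which left 11632 cells. By marker lists that contained none of the 9 genes, 6711 of them were Tc and 3549 were erythroid, with a further 263 cells carrying at least 3 Tc and at least 3 erythroid markers set apart as mixed. The erythroid share of cells was 19.0% and 48.2% in Havcr2fl/fl replicates 1 and 2, and 19.9% and 19.4% in E8icre/+ replicates 1 and 2, so Havcr2fl/fl replicate 2 stood apart from the rest. The targeted gene did not follow the labels in every library. Among Tc in which CD8 transcripts (Cd8a or Cd8b1) were counted but Cd4 was not, Havcr2 reached 53.8 and 115 UMIs per 1000000 in the Havcr2fl/fl libraries and 61.5 and 8.03 in the E8icre/+ libraries, so that the library labelled E8icre/+ replicate 1 was not below Havcr2fl/fl replicate 1. The counted 3′ tags need not lie in the deleted part of the gene. In all, 28 barcodes occurred in more than 1 library.

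Hemoglobin is a tetramer of α- and β-globin chains, each holding a heme, and red cell precursors fill with it while they shrink, shut down most other genes and finally lose the nucleus. Heme is assembled partly in mitochondria and partly in the cytosol. ALAS2, the erythroid form of aminolevulinate synthase, starts the pathway and sets its rate, ALAD joins its product into porphobilinogen, UROD decarboxylates uroporphyrinogen, and FECH (ferrochelatase) inserts the iron that mitoferrin-1, the product of Slc25a37, carries into mitochondria. The mouse spleen is a site of red cell production, above all under stress such as recovery from irradiation.

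On the GRCm38 assembly, the α-globin copies lie close together on chromosome 11, Hba-a1 at chr11:32283511-32284465 and Hba-a2 at chr11:32296489-32297298, both on the plus strand. The β-globin copies lie on the minus strand of chromosome 7, Hbb-bt at chr7:103812524-103813996 and Hbb-bs at chr7:103826534-103828096. Alas2 is on the X chromosome at chrX:150547375-150570638 on the plus strand, Alad and Urod are on chromosome 4, and Slc25a37 is on chromosome 14. Promoters of 7 of the 9 genes had an entry in RefSeq's table for GRCm38.p6. The 250 bases before the RefSeq start of 1 α-globin gene, both β-globin genes and Alas2 are shown here. These genes rose together below, in ranges that the globin genes themselves define. The gene positions above come from GENCODE, whose starts differ, so the windows run into those spans. They span chr11:32283422-32283671 (plus strand), chr7:103827929-103828178 (minus), chr7:103813924-103814173 (minus) and chrX:150547167-150547416 (plus). Capitals mark 4 motifs on either strand. These are GATAA, which GATA factors bind, and CACCC, which Krüppel-like factors bind, together with the letters CCAAT of the CAAT box and, near the start site, the letters ATATAA of the TATA box.
Hba-a1: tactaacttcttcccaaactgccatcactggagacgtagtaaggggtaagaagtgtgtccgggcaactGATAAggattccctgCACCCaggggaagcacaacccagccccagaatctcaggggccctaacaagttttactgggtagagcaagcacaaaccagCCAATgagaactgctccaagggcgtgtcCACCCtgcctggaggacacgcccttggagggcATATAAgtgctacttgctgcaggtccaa
Hbb-bs: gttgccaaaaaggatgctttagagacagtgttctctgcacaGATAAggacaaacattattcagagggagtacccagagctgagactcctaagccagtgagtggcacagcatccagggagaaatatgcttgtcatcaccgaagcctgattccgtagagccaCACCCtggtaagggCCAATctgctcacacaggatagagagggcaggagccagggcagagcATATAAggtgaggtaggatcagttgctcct
Hbb-bt: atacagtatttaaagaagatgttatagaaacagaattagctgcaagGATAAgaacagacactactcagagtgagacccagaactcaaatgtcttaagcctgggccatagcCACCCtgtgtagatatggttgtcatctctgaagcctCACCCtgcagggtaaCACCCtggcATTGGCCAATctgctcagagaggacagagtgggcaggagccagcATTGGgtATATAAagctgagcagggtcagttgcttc
Alas2: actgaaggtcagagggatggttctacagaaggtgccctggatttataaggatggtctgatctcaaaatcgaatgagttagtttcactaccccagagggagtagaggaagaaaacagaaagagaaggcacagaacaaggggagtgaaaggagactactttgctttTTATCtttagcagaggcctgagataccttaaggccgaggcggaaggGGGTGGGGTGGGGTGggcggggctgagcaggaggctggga

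Each of the 3 globin windows held all 4 motifs, and no motif overlapped another. The ATATAA letters began 28, 30 and 29 bases before the start in Hba-a1, Hbb-bs and Hbb-bt. GATAA began 182, 209 and 204 bases before it. CACCC occurred at 2 places in Hba-a1, 1 in Hbb-bs and 3 in Hbb-bt. The Alas2 window held GATAA on the opposite strand 86 bases before the start and 3 CACCC letters side by side on the opposite strand, 40, 35 and 30 bases before it, with neither CCAAT nor ATATAA. Of 32851 RefSeq promoter windows of this kind, 22.6% held GATAA, 52.0% CACCC, 33.8% CCAAT and 9.10% ATATAA, so the matches are a description and not evidence of a site in use. Hba-a1 and Hba-a2 shared 98.8% of the bases in this window, and Hbb-bs and Hbb-bt 74%. The windows of Alad and Urod are not shown, and neither gene's held GATAA or ATATAA. Urod, which also rose at each step below, held CCAAT letters on the opposite strand, 171 bases before the start, and no CACCC. The Alad windows held CCAAT letters, and CACCC on the opposite strand 47 bases before a start. Fech and Slc25a37 had no entry in the table.

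The paired copies were also nearly alike as transcripts. Hba-a1 and Hba-a2 shared 428 of 429 coding bases, and Hbb-bs and Hbb-bt 443 of 444, whereas 82.2% and 72.0% of the bases after the coding sequence were the same. Reads from 3′ ends fall largely after or near the end of the coding sequence. For β-globin, 95 of 132 bases there were the same, so such reads could in principle be told apart. For α-globin, all 74 bases after the Hba-a1 coding sequence had a match among the 90 of Hba-a2. How many α-globin reads could be told apart is therefore not known. A read inside the coding sequence could not be, and the split of UMIs between copies is uncertain. For β-globin there is a further limit. BALB/c mice carry another β-globin haplotype than the C57BL/6 reference to which reads were mapped, and whether each erythroid cell came from donor or recipient was not settled, so the Hbb-bs and Hbb-bt counts name the gene a read was assigned to.

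Erythroid cells were ordered by their hemoglobin share, the percent of a cell's UMIs from the 4 globin genes. The lowest range, below 1%, held 2078 cells, and the ranges of 1% to below 10%, 10% to below 40%, and 40% or more held 447, 386 and 638 cells. Of the 447, 25 and 366 came from the Havcr2fl/fl libraries and 30 and 26 from the E8icre/+ libraries. The 25 cells of Havcr2fl/fl replicate 1 had a median of 2473 UMIs, against 13562.5 to 20982 in the other libraries. Cells next to the bounds were nearly alike: the nearest shares were 0.995% and 1.004% around the first bound, 9.94% and 10.02% around the next, and 39.95% and 40.04% around the last. The median cell carried 7, 352, 1770.5 and 2584.5 globin UMIs over these ranges. Its total fell from 23454.5 UMIs and 4605 genes below 1% to 4531 UMIs and 723.5 genes at 40% or more, so the hemoglobin share rose through both more globin and less of everything else. Of the markers that called them erythroid, none of them a globin gene, Ermap (an erythroid membrane protein) had a UMI in 96.3%, 97.99%, 98.2% and 92.0% of cells, and the Tc marker Cd3e in 2.31%, 2.91%, 1.30% and 2.04%. Car1, an early erythroid carbonic anhydrase, went from 98.3% of cells in the lowest range to 13.3% in the highest. An antibody tag against donor H2K-b was counted at a median of 4064.5, 2424, 1306.5 and 692.5 per cell, falling along with total RNA.

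**Figure D1:**
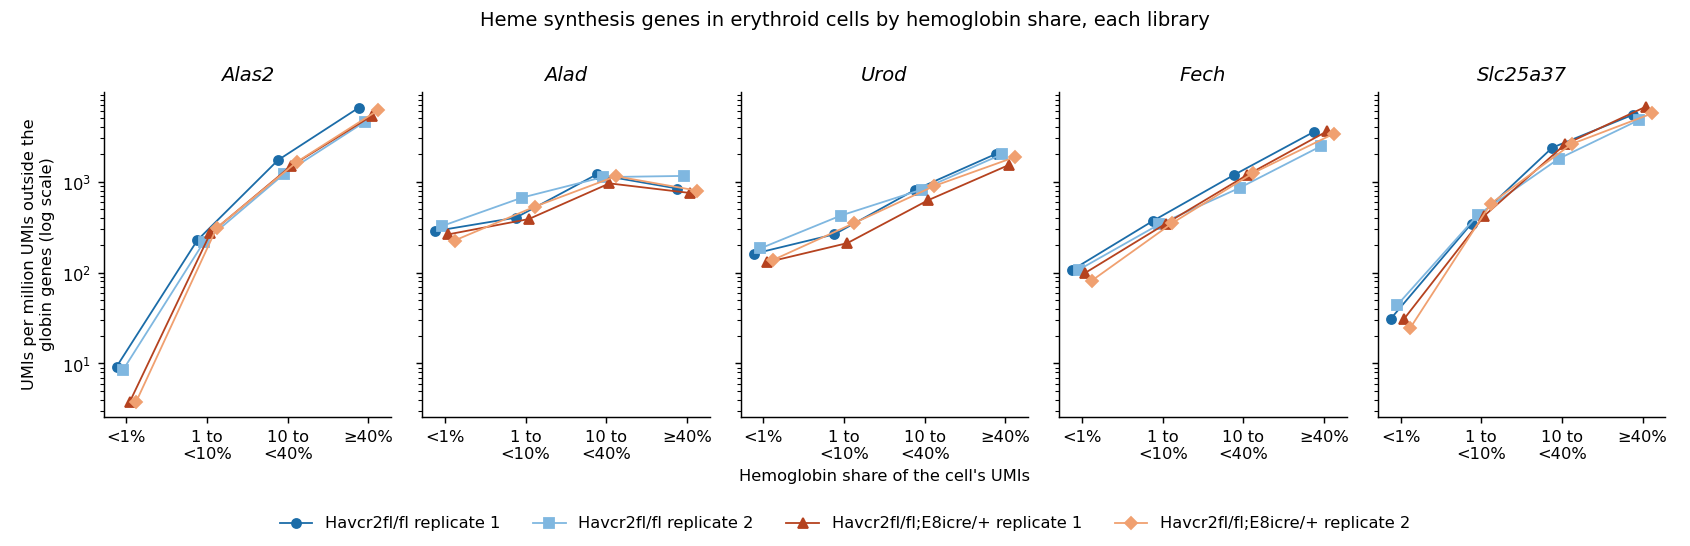
Levels of the 5 heme genes in erythroid cells, in UMIs per 1000000 UMIs outside the globin genes on a log axis, in the 4 ranges of hemoglobin share, with 1 point per library. Alas2 climbs from 3.74 to 9.25 below 1% to 4600 to 6533 at 40% or more, while Alad ends below or near its level in the range before.

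The globin genes, which define these ranges, are given as a description. Below 1%, the 4 genes together made up 0.124% and 0.129% of UMIs in Havcr2fl/fl replicates 1 and 2, and 0.05002% and 0.0440% in the E8icre/+ replicates. At 40% or more, Hbb-bs, the main adult β-globin gene, held 33.6% and 30.4% of UMIs in the Havcr2fl/fl libraries and 27.9% and 29.8% in the E8icre/+ libraries. Hba-a1 held 15.0% and 10.6% against 12.2% and 11.4%. Hba-a2 held 8.46% and 6.27% against 7.82% and 7.21%. Hbb-bt held 7.35% and 7.46% against 7.45% and 7.70%. In the globin-richest range, Hbb-bt thus varied little between libraries, whereas Hba-a1 was highest in Havcr2fl/fl replicate 1.

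The β-globin copies did not rise in step. Hbb-bt supplied 48.4% and 48.5% of β-globin UMIs below 1% hemoglobin in the Havcr2fl/fl libraries, and 48.8% and 44.3% in the E8icre/+ libraries. From 1% to below 10% it supplied 27.1%, 32.3%, 28.6% and 30.7%, in the same order. From 10% to below 40% the shares were 22.6%, 23.3%, 23.4% and 22.4%, and at 40% or more 17.96%, 19.7%, 21.1% and 20.5%. The 4 ranges did not overlap across libraries, and the fall had the same direction in all 4. The level of both copies rose throughout, from 9.39 Hbb-bs and 8.77 Hbb-bt UMIs per cell below 1% to 1584 and 387 at 40% or more.

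In finer bins, pooled over libraries, Hbb-bt was 32.9% of β-globin in cells below 0.05% hemoglobin, 50.7% from 0.05% to 0.1%, 54.5% from 0.1% to 0.25%, 54.4% from 0.25% to 0.5% and 47.1% from 0.5% to 1%. It then fell to 40.1% from 1% to 2.5%, 31.3% from 2.5% to 5% and 26.4% from 5% to 10%, reaching 17.9% above 70%. Of the 36 cells above 70%, 32 came from Havcr2fl/fl replicate 1, where the share was 17.6%. Havcr2fl/fl replicate 2 and E8icre/+ replicates 1 and 2 gave 2, 1 and 1 cells. Their shares there were 21.9%, 22.8% and 21.8%, against 19.9%, 20.5% and 19.3% from 60% to 70%. The bin below 0.05% is sparse: its 1331 cells held 4678 β-globin UMIs, and Tc with little globin, described below, had an Hbb-bt share of 21.4%. Median counts of the donor tag fell over the same ranges. The part that free RNA, the split between copies and the donor or recipient origin of the cells play in these shares was not tested.

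**Figure D2:**
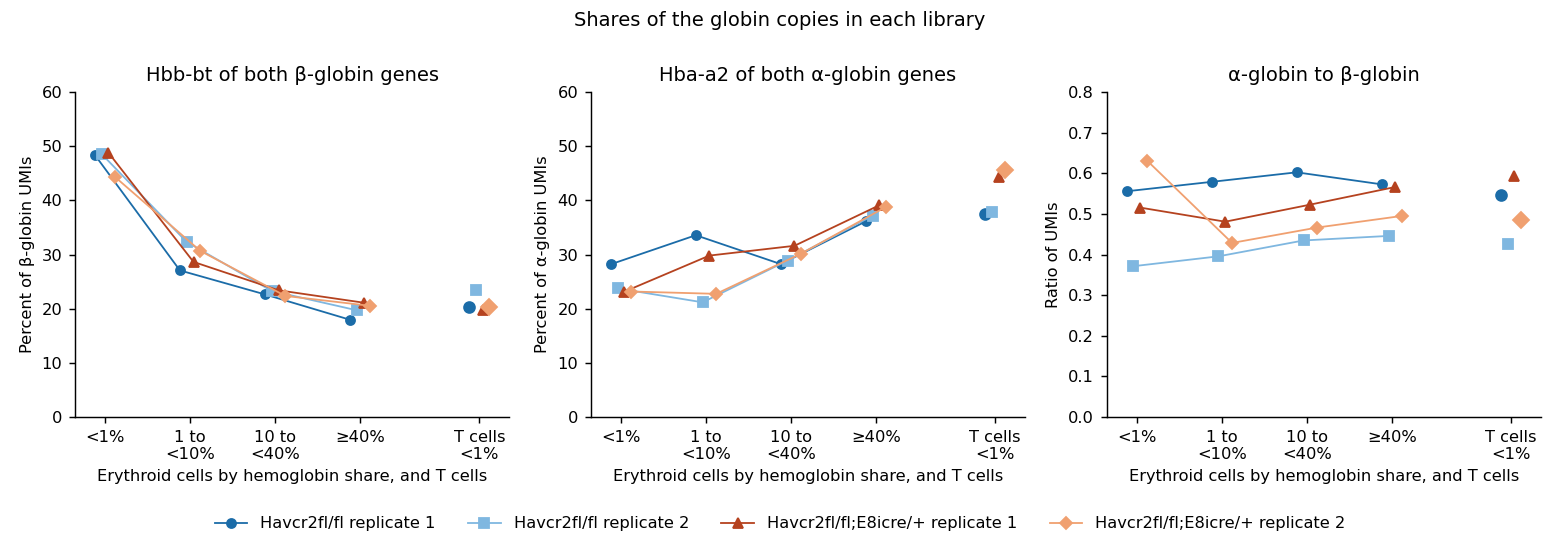
Hbb-bt as a percent of β-globin UMIs, Hba-a2 as a percent of α-globin UMIs, and the α to β ratio in the 4 ranges of hemoglobin share in erythroid cells and in Tc below 1%, with 1 point per library. Hbb-bt falls from 44.3% to 48.8% below 1% to 17.96% to 21.1% at 40% or more. Hba-a2 is higher at 40% or more than in the range below 1% taken as a whole. The α to β ratio lies between 0.371 and 0.631 in erythroid cells.

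Over the 4 ranges, the α-globin copies moved the other way. Hba-a2 supplied 28.2% and 23.7% of α-globin UMIs below 1% in the Havcr2fl/fl libraries and 23.1% and 23.2% in the E8icre/+ libraries, and 36.1%, 37.2%, 39.1% and 38.8% at 40% or more. The intermediate ranges were less orderly, with 33.6%, 21.2%, 29.8% and 22.7% from 1% to below 10%. In finer bins, pooled over libraries, Hba-a2 was 35.5% below 0.05% hemoglobin, 18.4% from 1% to 2.5% and 39.3% from 60% to 70%. Below 0.05% it was 36.3% and 36.4% in the Havcr2fl/fl libraries and 33.9% and 34.2% in the E8icre/+ libraries. From that bin, the share in Havcr2fl/fl replicate 1 did not rise. The bin is sparse, with 2620 α-globin UMIs, and Tc below 1%, described below, had an Hba-a2 share of 41.4%. The ratio of all α- to all β-globin UMIs was 0.518 ± 0.109, 0.471 ± 0.080, 0.506 ± 0.074 and 0.520 ± 0.061 over the 4 ranges (mean ± SD, n = 4 libraries). Within libraries it was higher from 10% to below 40% than from 1% to below 10% in 4 of 4, by 0.036 ± 0.0083, whereas the neighboring differences, -0.047 ± 0.107 and 0.013 ± 0.032, did not have 1 sign in all libraries. These values come from the genes that set the ranges and were not tested.

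Heme genes were compared after the globin UMIs were left out, as summed counts per library and range with library as a block (edgeR quasi-likelihood, Benjamini-Hochberg adjusted p over 6580 genes). Between neighboring ranges, 19.5% of all tested genes rose and 14.1% fell at the first step, 26.6% rose and 29.8% fell at the next, and 22.0% rose and 25.5% fell at the last. All 5 heme genes rose at the first 2 steps, and 4 of the 5 rose at the last. The median log2 change of all tested genes was -0.01, -0.10 and -0.34 at these steps. With library sizes alone it was -0.96 at the last step. The log2 changes below use the scaling factors of edgeR (TMM) and the levels do not, so their ratios need not match.

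Alas2, which commits the cell to heme synthesis, changed by the largest factor of the 5. Its level, in UMIs per 1000000 UMIs outside the globin genes, was 9.25 and 8.51 below 1% in the Havcr2fl/fl libraries and 3.74 and 3.76 in the E8icre/+ libraries. From 1% to below 10% it was 227, 216, 270 and 311. From 10% to below 40% it was 1733, 1230, 1490 and 1671, and at 40% or more 6533, 4600, 5300 and 6143. No 2 ranges overlapped. The level at 40% or more was 706 and 540 times that below 1% in the Havcr2fl/fl libraries and 1417 and 1633 times in the E8icre/+ libraries. Pooled over libraries it was 843 times, and 1356 times without Havcr2fl/fl replicate 2, which held 1361 of the 2078 cells below 1%. The log2 change was 5.42 ± 0.28 (SE, adjusted p = 7.32e-11) at the first step, 2.78 ± 0.25 (adjusted p = 8.93e-08) at the next and 2.501 ± 0.24 (adjusted p = 3.73e-08) at the last. The lowest range rested on 370 Alas2 UMIs in 2078 cells.

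Slc25a37, which brings in the iron, came closest to Alas2. Its level was 31.1, 44.1, 30.7 and 24.6 UMIs per 1000000 below 1% (Havcr2fl/fl replicates 1 and 2, then E8icre/+ replicates 1 and 2) and 5475, 4808, 6707 and 5668 at 40% or more. It rose by 3.81 ± 0.22 on the log2 scale at the first step (adjusted p = 1.69e-10), 2.61 ± 0.21 at the next (adjusted p = 2.83e-08) and 1.89 ± 0.20 at the last (adjusted p = 1.55e-07). Fech, which closes the pathway, rose more evenly. Its level was 107, 108, 99.4 and 81.5 below 1%, 372, 341, 347 and 352 from 1% to below 10%, 1184, 863, 1179 and 1248 from 10% to below 40%, and 3570, 2464, 3612 and 3377 at 40% or more. The log2 changes were 1.89 ± 0.17, 1.86 ± 0.17 and 2.16 ± 0.17 (adjusted p = 9.38e-08, 1.29e-07 and 3.12e-09).

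Urod, in the middle of the pathway, was already at 161, 185, 130 and 138 UMIs per 1000000 below 1% and reached 2025, 2014, 1529 and 1876 at 40% or more. Its log2 changes were 1.07 ± 0.17, 1.57 ± 0.17 and 1.86 ± 0.17 (adjusted p = 6.71e-05, 4.81e-07 and 1.52e-08). From below 1% to 40% or more, the level of Slc25a37 rose 109-fold to 231-fold over the 4 libraries, that of Fech 22.9-fold to 41.4-fold and that of Urod 10.9-fold to 13.6-fold.

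Measured against UMIs outside globin, Alad was the exception among the 5. It had a level of 287, 325, 264 and 226 UMIs per 1000000 below 1%, 403, 672, 389 and 535 from 1% to below 10%, and 1204, 1126, 961 and 1151 from 10% to below 40%. At 40% or more it was 843, 1161, 753 and 801, lower than in the range before in 3 of 4 libraries. The log2 changes were 0.90 ± 0.17 (adjusted p = 0.000377) and 1.39 ± 0.17 (adjusted p = 2.10e-06) at the first 2 steps, and 0.28 ± 0.17 at the last, which did not pass the test (adjusted p = 0.18). The sign of the last step depended on scaling: it was -0.35 (adjusted p = 0.070) with library sizes alone and 0.36 (adjusted p = 0.043) in DESeq2, within adjusted p from 6.94e-05 to 0.849 over 14 alternatives. In pooled finer bins Alad reached 1453 UMIs per 1000000 from 40% to 50% hemoglobin and was 940 from 50% to 60%, 432 from 60% to 70% and 278 above 70%. Of the 36 cells above 70%, 32 came from Havcr2fl/fl replicate 1. In that library Alad was 1503 from 50% to 60%, 778 from 60% to 70% and 284 above 70%. In UMIs per cell, pooled over libraries, Alad went from 7.82 below 1% to 9.45, 6.85 and 1.98 over the 4 ranges. Urod ended near where it began, at 4.35, 5.95, 4.97 and 4.11 per cell. Slc25a37 went from 0.990 to 6.74, 13.97 and 12.2, lower at the last step. Alas2 (0.178, 3.55, 9.16 and 12.2) rose throughout. Fech (2.72, 5.33, 6.68 and 6.98) did so in the pool but in no single library. At the last step it went from 11.8 to 11.5 and 4.41 to 4.05 per cell in the Havcr2fl/fl libraries. In the E8icre/+ libraries it went from 6.45 to 7.76 and 8.41 to 8.10. At the middle step it fell from 7.87 to 6.45 in E8icre/+ replicate 1. The median cell's UMIs outside globin fell meanwhile from 23417.5 to 1910.5.

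**Figure D3:**
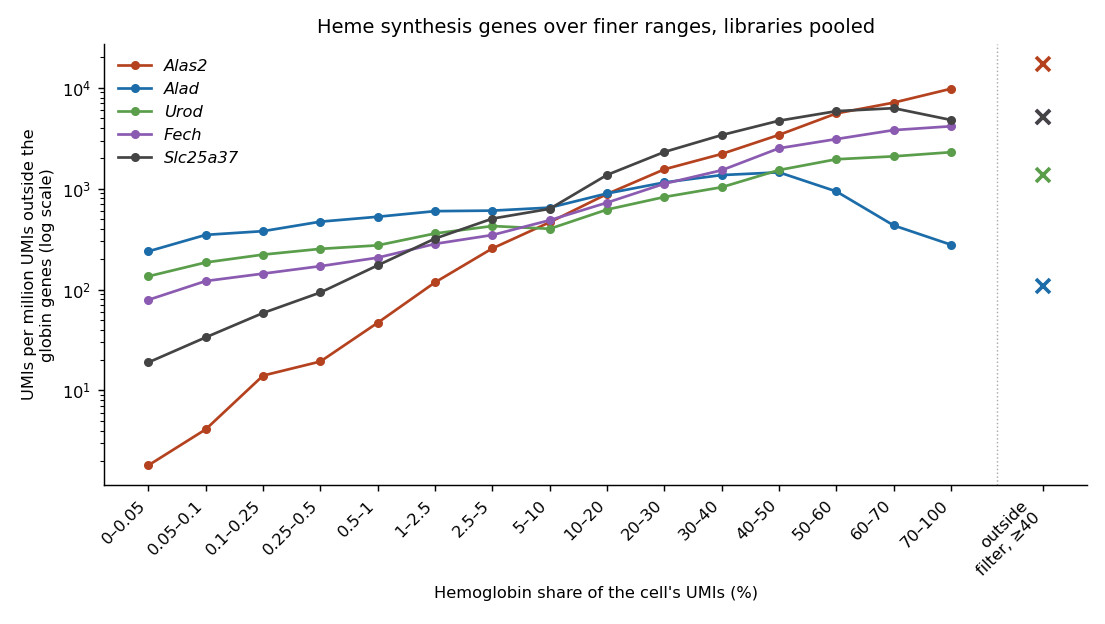
Pooled levels of the 5 heme genes in erythroid cells, in UMIs per 1000000 UMIs outside the globin genes on a log axis, against hemoglobin share in finer bins, with crosses for the barcodes with 40% or more outside the cell filter (the cross of Fech, 5151, lies under that of Slc25a37, 5195). Alad turns down above 50% hemoglobin, to 278 above 70%, where 32 of the 36 cells came from Havcr2fl/fl replicate 1. Levels of different genes should not be ranked, since capture can differ between transcripts.

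Where the bounds were set mattered for some of these steps. With bounds at 0.5%, 5% and 20%, the middle step of Alad was 0.53 (adjusted p = 0.18) and that of Urod 0.63 (adjusted p = 0.097), the highest adjusted p for either over 14 alternatives, with the lowest at 3.78e-14 and 9.68e-16. The last step of Alad was 1.30 (adjusted p = 6.94e-05). With at least 1000 genes required per cell and at most 5% mitochondrial UMIs, the last steps of Alas2, Urod, Fech and Slc25a37 shrank to 1.28, 1.02, 1.28 and 1.19 and still passed. That filter left fewer than 20 cells from 1% to below 10% in Havcr2fl/fl replicate 1 and E8icre/+ replicate 2, whose sums were then dropped. The other bounds dropped the sum from 0.5% to below 5% in Havcr2fl/fl replicate 1.

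Other genes of heme synthesis and transport rose with them. Of the 15 tested, 10 rose at the first step, 11 at the next and 9 at the last, and 1 fell at the last. Uros and Ppox, enzymes of the pathway that were not among the 5, rose at each step, by 1.70, 1.56 and 1.09 and by 1.59, 1.93 and 1.19 on the log2 scale. Cpox, the enzyme acting between UROD and PPOX, rose by 1.14 and 1.35 and then changed by 0.33 (adjusted p = 0.11). Tmem14c, which moves a porphyrin precursor within mitochondria, rose by 1.23 at the first step and fell by 1.45 at the last. Slc48a1, a heme transporter, changed by 0.27 (adjusted p = 0.17) and then rose by 1.54 and 2.70. At the last step, library sizes alone gave 6 that rose and 4 that fell, and turned the sign of Cpox, Snx3 and Clpx.

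Of 11 genes of iron uptake and storage, 5 rose at each step and 0, 3 and 3 fell. Tfrc, the transferrin receptor, rose by 1.45, 1.45 and 1.14, and Ncoa4, which delivers ferritin for breakdown, by 1.27, 1.90 and 3.06. Iscu, an iron-sulfur cluster scaffold, changed by 0.32 and 0.30 (adjusted p = 0.20 and 0.24) and then rose by 2.81. With library sizes alone, 4 rose and 3 fell at the last step, and Fth1 and Slc11a2 turned sign. Of 5 genes of heme response and breakdown, 4, 2 and 3 rose and 0, 0 and 1 fell. Eif2ak1, the heme-regulated kinase that restrains globin translation, rose by 1.36, 1.71 and 2.43.

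Of 10 erythroid transcription factors and cofactors, 7, 7 and 3 rose and 1, 2 and 3 fell. Gata1 rose by 0.52 and 0.84 and then changed by 0.17 (adjusted p = 0.47), Gata2, a factor of earlier progenitors, fell by 1.38 at the first step, and Nfe2 rose by 1.34, 2.22 and 2.11. At the last step 2 rose and 6 fell with library sizes alone, which turned the sign of Gata1, Tal1 and Zfpm1. All 13 membrane and cytoskeleton genes rose at all 3 steps. Slc4a1 (band 3) led them at the first step, with 5.47, 2.46 and 1.71. Some of these 13, among them Rhag, Ermap and Slc4a1, had also served to call cells erythroid. With library sizes alone 9 of the 13 passed at the last step, and Aqp1 and Sptb changed sign. Of 7 other hemoglobin genes and chaperones, Hbq1b (θ-globin) was the 1 tested, and rose by 4.70, 3.45 and 2.02.

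Over the 16 sums of library and range, the genes whose log2 levels ran most like Alas2 were Apol11b, Apol11a, Sox6, Slc4a1 and Btg2 (Pearson r from 0.994 to 0.996, among 6575 genes). The same 5 led the likeness to summed globin (r from 0.991 to 0.996). Among the members themselves, r with Alas2 was 0.996 for Slc25a37, 0.977 for Fech, 0.942 for Urod and 0.895 for Alad. The sums share libraries, depth and the ordering by hemoglobin, so these values are a description.

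Much of the globin lay outside the cell filter. Of 5896667 globin UMIs in all barcodes, 56.5% were in retained cells. A further 933 barcodes had a hemoglobin share of 40% or more but did not pass, 931 of them for having under 500 genes, and these held 42.7% of all globin UMIs. Libraries contributed 84 and 360 (Havcr2fl/fl) and 209 and 280 (E8icre/+). They had a median of 241 genes, 3082 UMIs and 81.7% hemoglobin. Their donor tag count was 328. In each library, the Hbb-bt share was a little below that of retained cells with 40% or more, and the Hba-a2 share a little above. Hbb-bt supplied 16.8%, 18.8%, 19.3% and 19.5% of β-globin, against 17.96%, 19.7%, 21.1% and 20.5%. Hba-a2 supplied 39.4%, 41.6%, 42.8% and 42.3% of α-globin, against 36.1%, 37.2%, 39.1% and 38.8%. Alas2 stood at 17222 UMIs per 1000000 outside globin and Fech at 5151, above the 5614 and 3198 of retained cells with 40% or more, pooled over libraries. Slc25a37 stood at 5195 against 5573. It was lower than in retained cells in Havcr2fl/fl replicate 2 (3906 against 4808) and E8icre/+ replicate 2 (5032 against 5668), and higher in the other two libraries. Within retained cells Slc25a37 went from 6286 from 60% to 70% hemoglobin to 4804 above 70%, where 32 of the 36 cells came from Havcr2fl/fl replicate 1. In that library it went from 6328 to 4751. It went from 5768 to 5875 in Havcr2fl/fl replicate 2, and from 7140 to 7067 and 6113 to 3484 in the E8icre/+ libraries. Outside the filter Urod was at 1375 and Alad at 110, both below their levels in retained cells at 40% or more, which were 1883 and 907. Counted per barcode and pooled over libraries, each heme gene was lower than per retained cell at 40% or more. Alas2 gave 10.95 UMIs against 12.2, Fech 3.28 against 6.98 and Slc25a37 3.30 against 12.2. Urod gave 0.875 against 4.11 and Alad 0.0697 against 1.98. A filter on genes per cell therefore removed barcodes with a higher median hemoglobin share than retained cells at 40% or more (81.7% against 58.4%). Their pooled Alad level of 110 was also below the 278 of retained cells above 70%.

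Globin UMIs also appeared in Tc, which do not make hemoglobin. Over all 6711 Tc, the globin share of summed UMIs was 0.399% and 0.185% in the Havcr2fl/fl libraries and 0.221% and 0.188% in the E8icre/+ libraries. A few cells carried most of it. The 34 Tc with 1% hemoglobin or more (5, 8, 14 and 7 per library) held 89.1% of the globin UMIs, at a median of 2082.5 each, and 362 of the 410 Alas2 UMIs found in Tc. The typical Tc held 1, 2, 1 and 1 globin UMIs. Of the 34, 32 had an Alas2 UMI and 5 were among the highest doublet scores, as were 182 of the 263 mixed cells. Whether these barcodes held more than 1 cell was not tested.

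The remaining 6677 Tc, each below 1%, held few globin UMIs apiece. RNA free in the cell suspension can give such counts, but no empty droplets were analysed here and its part was not tested. At least 1 globin UMI was found in 77.1% of them in Havcr2fl/fl replicate 1 (95% Wilson interval 74.1% to 79.9%) and 84.1% in replicate 2 (82.3% to 85.7%), and in 54.5% (52.5% to 56.5%) and 71.1% (69.0% to 73.2%) in the E8icre/+ libraries. These intervals cover counting error only. Thinned to 2000 UMIs per cell, the shares were 38.4%, 66.9%, 29.3% and 35.6%, with 23, 263, 75 and 16 shallower cells left out. Havcr2fl/fl replicate 2 had the highest share before and after thinning. It held the most erythroid cells and the most globin UMIs, but not the highest globin share of UMIs. Over all barcodes, globin UMIs numbered 1344900 and 1733615 in the Havcr2fl/fl libraries and 1088702 and 1729450 in the E8icre/+ libraries. As a share of UMIs, globin was 7.60% and 3.15% in the Havcr2fl/fl libraries and 2.84% and 5.50% in the E8icre/+ libraries. Per 10000 UMIs, these Tc held 2.32, 5.65, 1.64 and 2.05 globin UMIs. Myeloid or leukemia cells held 1.18, 1.97, 0.956 and 1.24, and basophils or mast cells 1.09, 2.65, 0.952 and 1.18. All 3 classes were highest in Havcr2fl/fl replicate 2. Per cell rather than per UMI the order of classes differed, with a mean of 1.44 globin UMIs in Tc at a median of 4621 UMIs, and 4.05 in myeloid or leukemia cells at a median of 28872.5.

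**Figure D4:**
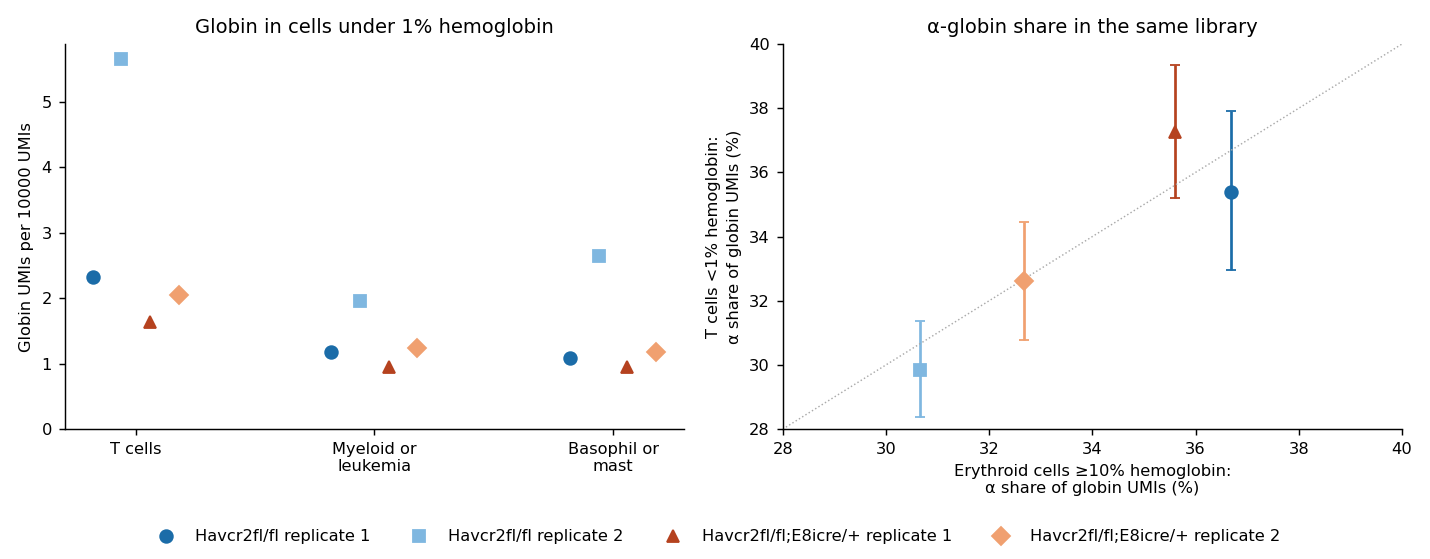
Left, globin UMIs per 10000 UMIs in cells below 1% hemoglobin, by class and library. Right, the α share of globin UMIs in Tc below 1% (95% Wilson intervals) against that in erythroid cells of the same library with 10% or more, where the 4 libraries lie close to the line of equal shares.

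In α and Hbb-bt shares, the globin UMIs of these Tc were divided much as in the hemoglobin-rich cells of the same library. The Hba-a2 share differed from that of retained erythroid cells in some libraries. The α-globins were 35.4%, 29.9%, 37.3% and 32.6% of globin UMIs in Tc below 1%, and 36.7%, 30.7%, 35.6% and 32.7% in erythroid cells with 10% or more, inside the Tc interval in 4 of 4 libraries. Hbb-bt was 20.3%, 23.4%, 19.7% and 20.4% of β-globin in those Tc. The erythroid value of 19.0%, 20.8%, 21.8% and 21.1% lay inside the Tc interval in 3 of 4 libraries, all but Havcr2fl/fl replicate 2. Hba-a2 was 37.5%, 37.9%, 44.3% and 45.6% of α-globin in those Tc. The erythroid values were 28.2%, 28.9%, 31.6% and 30.2% from 10% to below 40%, and 36.1%, 37.2%, 39.1% and 38.8% at 40% or more. Both lay below the Tc interval in the E8icre/+ libraries (40.9% to 47.9% and 42.2% to 49.0%). In the Havcr2fl/fl libraries the value at 40% or more lay inside it. Barcodes outside the filter with 40% or more had Hba-a2 shares of 39.4%, 41.6%, 42.8% and 42.3%. These lay inside the Tc interval except in Havcr2fl/fl replicate 2, where the interval ended at 40.8%.

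Among the heme genes, Alas2 alone kept the proportion to globin that erythroid cells had. It gave 4.98 UMIs per 1000 globin UMIs in Tc below 1% (exact Poisson interval 3.67 to 6.60, from 48 UMIs), 4.21 in erythroid cells with 10% or more, and 4.37 over all barcodes outside the Tc class. The other 4 exceeded it: Alad gave 137 per 1000 globin UMIs in those Tc against 4.70 over all barcodes outside the class, Urod 98.7 against 3.30, Fech 50.5 against 3.57 and Slc25a37 60.4 against 4.18. Their levels in these Tc were 35.2, 25.4, 12.98 and 15.5 UMIs per 1000000, and that of Alas2 1.28. In the 34 globin-rich Tc, Alas2 gave 4.61 per 1000 globin UMIs and Alad 0.127, between the 0.0258 of the globin-rich barcodes outside the filter and the 1.45 of erythroid cells with 10% or more.

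Donor genotype was compared on summed counts, with 2 libraries a group, for erythroid cells (10963 genes tested) and Tc (11692). None of the 9 genes passed in either class by edgeR. Of all genes, 0.0274% rose and 0% fell in erythroid cells, and 0.0171% rose and 0% fell in Tc, while 367 and 388 had an unadjusted p under 0.05 and DESeq2 called 19 and 21. The genes called, named here after their values were seen and none of them a member, were Rbm44, Aldh1l1 and Xlr in erythroid cells and Prdm16 and Xlr in Tc. All were higher in the libraries labelled E8icre/+. Xlr, an X-linked lymphocyte gene, had 0 counts in both Havcr2fl/fl libraries in either class, and reached 23.9 and 38.2 counts per 1000000 (CPM) in E8icre/+ erythroid cells and 14.9 and 13.6 in E8icre/+ Tc.

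In erythroid cells as a whole, the globin levels were led by Havcr2fl/fl replicate 1. Hba-a1 stood at 39113 and 4983 CPM in the Havcr2fl/fl libraries and 6593 and 15533 in the E8icre/+ libraries, and Hbb-bs at 82765 and 12886 against 14644 and 39105. The groups overlapped. The log2 changes, E8icre/+ over Havcr2fl/fl, were -0.99 for Hba-a1, -0.87 for Hba-a2, -0.83 for Hbb-bs and -0.68 for Hbb-bt, and -0.56, -0.45, -0.52, -0.42 and -0.33 for Alas2, Alad, Urod, Fech and Slc25a37, each with an adjusted p of 1.00. Without Havcr2fl/fl replicate 1, the same changes became 1.14, 1.40, 1.05 and 0.86 for the globins and 1.13 for Alas2. The mix of ranges differed between libraries: cells with 40% hemoglobin or more were 98 of 231 and 249 of 2139 erythroid cells in the Havcr2fl/fl libraries, and 126 of 683 and 165 of 496 in the E8icre/+ libraries. Fewer hemoglobin-rich cells and less globin RNA per cell cannot be told apart in these sums. Alad was the 1 heme gene whose groups did not overlap in erythroid cells, with 402 and 383 CPM against 256 and 317. Complete separation of 2 against 2 libraries gives a two-sided exact permutation p of 0.33. How many of all tested genes separated in this way was not counted, so no difference is read from it.

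In Tc, the log2 changes were -0.65, -0.54, -0.54 and -0.60 for Hba-a1, Hba-a2, Hbb-bs and Hbb-bt and from -0.59 (Urod) to -0.09 (Fech) for the heme genes, with adjusted p = 1.00 throughout. Hbb-bt stood at 450 and 251 CPM in the Havcr2fl/fl libraries against 230 and 232, Alad at 39.3 and 44.5 against 34.9 and 27.96, and Urod at 28.1 and 37.2 against 20.1 and 23.4, without overlap, while the groups overlapped for the other 6 genes. As in erythroid cells, the share of all tested genes without overlap was not counted, so no difference is read from it. The hemoglobin share of Tc UMIs averaged 0.204% in the E8icre/+ libraries and 0.292% in the Havcr2fl/fl libraries (log2 ratio -0.51, two-sided exact permutation p = 1), and the ratio was 0.14 without Havcr2fl/fl replicate 1. In Tc below 1%, a limit chosen after seeing the data, the shares were 0.0232% and 0.0565% against 0.0164% and 0.0205%. The groups did not overlap (log2 ratio -1.11), but the exact p of 0.33 was the smallest that 2 against 2 can give. The erythroid share of cells likewise gave a log2 ratio of -0.77, which was 0.047 without Havcr2fl/fl replicate 2. Nothing in the labels says whether the 2 libraries of a genotype were processed in separate batches.

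**Figure D5:**
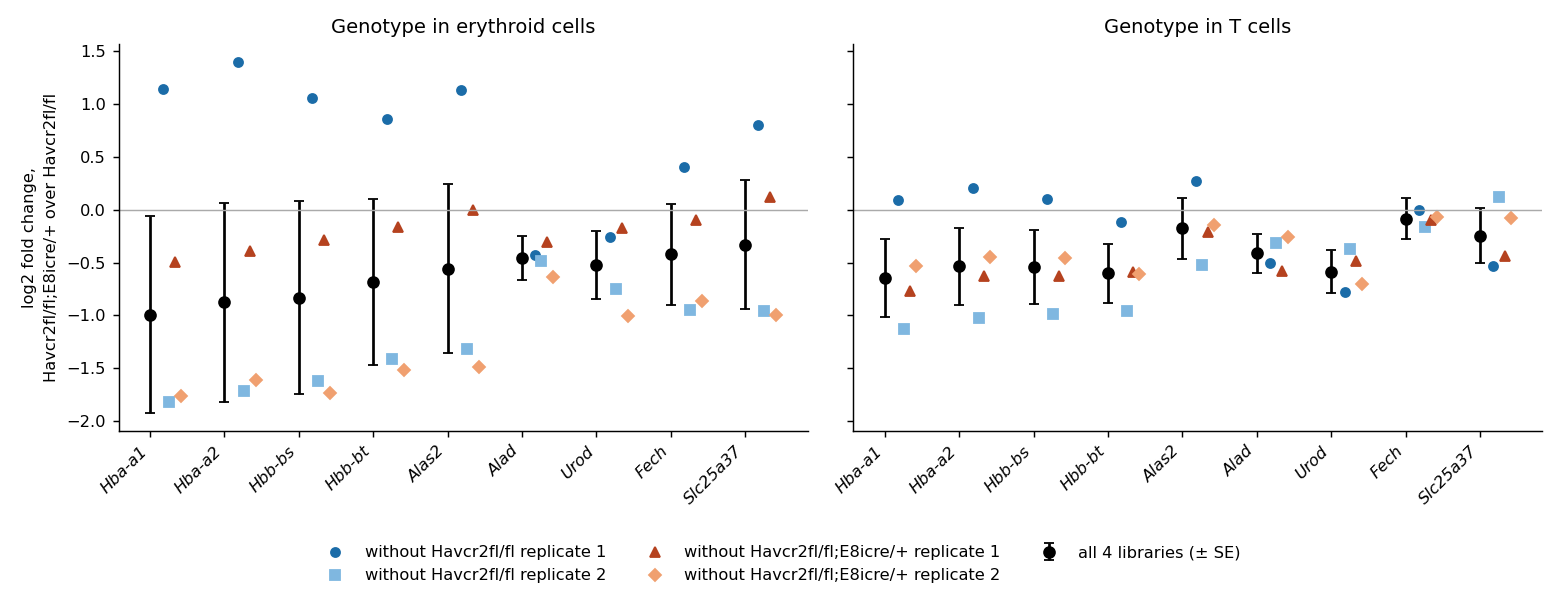
Log2 fold change of the 9 genes in E8icre/+ over Havcr2fl/fl libraries, in erythroid cells and in Tc, black points with SE bars for all 4 libraries and colored points with 1 library left out (edgeR). All 4-library values lie below 0, from -0.99 to -0.09, none passed the test, and the globin values turn positive in erythroid cells without Havcr2fl/fl replicate 1.

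Of the other lists, none of the genes passed in the genotype comparison by edgeR. In erythroid cells, the median log2 change was -0.37 over 17 genes of heme synthesis and transport, -0.25 over 11 of iron uptake and storage and -0.37 over 13 of the membrane. It was -0.38 over 6 of heme response and breakdown, -0.045 over 10 erythroid factors and -0.049 over the 2 other hemoglobin genes tested. The median over all genes was -0.0046. In Tc the medians for heme synthesis and transport, iron, and membrane were -0.29, -0.25 and -1.61 over the 17, 10 and 8 genes tested. They were -0.30 over 6 genes of heme response and breakdown and -0.93 over the 6 erythroid factors tested. In Havcr2fl/fl replicate 2, 34.7% of Tc had a UMI of an erythroid marker, against 8.38% in Havcr2fl/fl replicate 1 and 9.46% and 8.86% in the E8icre/+ libraries, and the part of this library in the Tc medians was not tested.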

How the data were processed

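The authors deposited filtered 10x Genomics matrices of 4 libraries, made per the file headers with Cell Ranger 6.1.2, and per the labels on mm10, as raw UMI counts per gene and barcode, with 1 antibody tag. No value was normalized by the authors in these files. The members, gene lists and tests used here were chosen with earlier results of these data known. The text names the 9 members, the fixed pathway lists and the 5 genes most like Alas2 or summed globin.

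Barcodes under 500 genes or 1000 UMIs, or above 10% mitochondrial UMIs, were left out, and the others assigned to a class with at least 3 of its markers detected. Scrublet called 9, 109, 2 and 5 doublets, too few to rely on, so none was removed in the reported values, and removing the highest scores (15, 239, 119 and 65 barcodes) was an alternative. Counts were summed per library and class or hemoglobin range, using sums of at least 20 cells. Sums were tested with edgeR 4.0.16 (TMM, filterByExpr, quasi-likelihood F test, Benjamini-Hochberg threshold 0.05, R 4.3.3), and with DESeq2 1.42.0 as an alternative. Steps between ranges used a library block and left out globin counts. Levels of heme genes are UMIs per 1000000 UMIs outside globin. Python 3.11.15, scanpy 1.11.5, scipy 1.17.1 and matplotlib 3.10.9 were used, and the fits were tested on simulated counts. Replicate numbers did not pair the genotypes. The genotype p-values measure the spread between libraries of 1 mouse each. Those of the steps measure how far the changes between ranges varied among these libraries, after the library block. Promoters came from RefSeq (GRCm38.p6) and gene positions from GENCODE on GRCm38, the assembly named mm10 in the labels. Reads were not analysed here, and some genes of the lists are not reported by name.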

Additional observations from a re-analysis of the deposited data

Results flagged for a closer look

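Among the cells with both Tc and erythroid markers, which entered no comparison, 64 had a hemoglobin share of 10% or more (10 and 20 in the Havcr2fl/fl libraries, 18 and 16 in the E8icre/+ libraries). They held a median of 2713.5 globin UMIs, all 64 had an Alas2 UMI, and 46 were among the highest doublet scores. They were singled out because globin stood far above the level in Tc, a median of 1 UMI.

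Outside the cell filter, 933 barcodes had a hemoglobin share of 40% or more, with a median of 241 genes per barcode, against 638 retained erythroid cells in that range. They were singled out because they carry 42.7% of all globin UMIs and enter no test.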

How the results depend on the processing

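Over 588 recomputed values, 547 kept their direction and their side of the threshold or stayed near the reported value, 2 lost a call, 2 gained one, 16 changed sign and 21 moved. Of 210 values for heme genes along the hemoglobin ranges, 205 were kept. Counts of genes called at the 3 steps were 2212, 3712 and 3125. Leaving out 1 library gave 979 to 2021 at the first step (979 without Havcr2fl/fl replicate 2), 2974 to 3431 at the next and 2609 to 2857 at the last. The stricter cell filter gave 1175 at the first step and 1628 at the last, and the other bounds 455 at the middle step. Genes rising and falling numbered 1282 and 930, 1751 and 1961, and 1445 and 1680. Scaling moved this split, to 1008 and 1307 with DESeq2 size factors at the first step, and, with library sizes alone (chosen after seeing the data), to 1346 and 2498 at the middle step and 903 and 3191 at the last, where the median gene changed by -0.96. The last step of Alad was then -0.35.

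By genotype, 3 genes were called in erythroid cells and 2 in Tc. Leaving out 1 library gave 1 to 21 and 0 to 41. Without a filter on low counts 117 and 14 were called, DESeq2 called 19 and 21, and removal of the highest doublet scores left 0 in Tc. With the replicate block 0 were called in erythroid cells and 0 in Tc. Deviations of same-numbered libraries correlated at -0.230 and -0.191, and the crossed pairing, tried after seeing the data, called 7 and 109.

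Leave-one-out ranges of the log2 change in erythroid cells were -1.82 to 1.14 for Hba-a1, -1.71 to 1.40 for Hba-a2, -1.73 to 1.05 for Hbb-bs, -1.52 to 0.86 for Hbb-bt, -1.49 to 1.13 for Alas2, -0.95 to 0.41 for Fech and -0.99 to 0.80 for Slc25a37. In Tc they were -1.13 to 0.088 for Hba-a1, -1.02 to 0.20 for Hba-a2, -0.98 to 0.10 for Hbb-bs, -0.52 to 0.27 for Alas2 and -0.53 to 0.12 for Slc25a37. Those of the hemoglobin share in Tc were -0.96 to 0.14 and those of the erythroid share of cells -1.29 to 0.047. The α to β ratio in Tc moved from 0.464 to 0.513 in Tc below 1%. Apart from what the sums themselves show, the cause of these changes was not tested. Depth limits Alas2 below 1% hemoglobin and in Tc, where it rests on few UMIs.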
